A study of Mus musculus with 6 samples.

Results

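The aryl hydrocarbon receptor (AHR) pathway genes Cyp1b1, Cyp1a1, Ahr, Ahrr, Arnt, Arnt2, Tiparp and Aldh3a1 were examined in RNA-seq libraries of clock-deficient mouse embryonic fibroblasts (MEFs), 8 genes of the 27179 counted. Cyp1b1 was selected on its normalized counts in these same libraries, which differ between the lines, so its values are given as a description with no test. The other 7 were taken as members of its pathway, and the question was whether the Cyp1b1 difference came with other AHR target genes or stood alone. These members and the lists used below were chosen with earlier results of these data known.

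RNA was sequenced from 3 immortalized MEF lines of the C57BL/6 strain, with 2 libraries per line, each from its own RNA preparation of untreated, nearly confluent cells. The libraries labelled Cry/Per/Nr1d_KO carry knockouts of both Cry genes, both Per genes and both Nr1d genes, those labelled Cry/Per_KO keep both Nr1d genes, and those labelled Per/Nr1d_KO keep both Cry genes. Loss of Per1 and Per2 is therefore shared by every library, and no line with an intact clock was analysed here. Per the study's methods, the Cry/Per/Nr1d_KO line was isolated from individual colonies after CRISPR targeting of Nr1d1 and Nr1d2 in Cry/Per_KO cells, whereas Per/Nr1d_KO is a separately made line. Differences due to genotype and differences due to the origin of a line cannot be told apart, and p-values measure only the spread between RNA preparations.

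Totals ran from 53764390 to 85927236 counts per library. Transcripts of the mutated genes were present throughout, between 1004 and 9337 normalized counts (reads scaled by TMM factors to the mean effective library size), so no knockout shows as missing RNA. The names under which the counts were deposited swap the lines of the pairs labelled Cry/Per/Nr1d_KO and Cry/Per_KO, and the genotype labels were followed. Cry1 and Nr1d1, genes that NR1D proteins are known to repress, were not lower in the pair labelled as keeping NR1D. Cry1 had means of 5401 ± 109 and 1711 ± 17.8 normalized counts (SD, n = 2) in the labelled Cry/Per_KO and the labelled Cry/Per/Nr1d_KO, and Nr1d1 had 9293 ± 62.4 and 3152 ± 8.39. Per1, Per2, Cry2 and Nr1d2 were also higher in the former pair. The study reports the reverse for Cry1, Nr1d1, Nr1d2, Per1 and Per2, as lower in Cry/Per_KO than in Cry/Per/Nr1d_KO cells. It describes Cry2 as similar in these lines. The levels of Cry1, Nr1d1, Nr1d2, Per1 and Per2 go against the labels of both pairs and with the names of the deposited counts. Under those names, statements on the labelled Cry/Per_KO pair would describe Cry/Per/Nr1d_KO cells, and the reverse. The direction of each comparison between these pairs, and which of them is which reference for Per/Nr1d_KO, is therefore uncertain throughout. An exchange of these names would turn the sign of the comparison between the pairs and exchange the references of Per/Nr1d_KO, and it would leave the level in each library as it is.

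AHR is a ligand-activated transcription factor of the bHLH-PAS family, to which CLOCK and BMAL1 also belong. It is held in the cytosol by HSP90 and co-chaperones, moves to the nucleus when a ligand such as a dioxin or a tryptophan metabolite binds, and pairs there with ARNT on DNA elements with the core GCGTG. Cyp1a1 and Cyp1b1 encode cytochrome P450 enzymes that oxidize ligands, steroids and retinoids, and Cyp1b1 is the member known for expression in mesenchymal cells. Ahrr and Tiparp are target genes whose products restrain the receptor.

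The promoter windows of 4 members are shown, because Cyp1b1 and Cyp1a1 are the CYP1 genes whose levels are contrasted and because Ahrr and Tiparp, both feedback genes, lay on opposite sides of the labelled Cry/Per/Nr1d_KO libraries in Per/Nr1d_KO cells. Each window holds the 250 bases before a RefSeq transcript start in GRCm38.p6, which need not be the outermost end of the gene. It is written along the gene's strand, and capitals mark GCGTG or, where the core lies on the other strand, its complement CACGC. The windows are chr17:79715062-79715311 (minus strand) for Cyp1b1, chr9:57697363-57697612 (plus strand) for Cyp1a1, chr13:74292332-74292581 (minus strand) for Ahrr and chr3:65528197-65528446 (plus strand) for Tiparp.
Cyp1b1: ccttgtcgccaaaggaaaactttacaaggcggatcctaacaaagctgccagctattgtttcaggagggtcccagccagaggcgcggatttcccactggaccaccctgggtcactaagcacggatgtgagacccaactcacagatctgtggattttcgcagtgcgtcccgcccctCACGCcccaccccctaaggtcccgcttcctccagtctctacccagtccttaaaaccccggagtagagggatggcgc
Cyp1a1: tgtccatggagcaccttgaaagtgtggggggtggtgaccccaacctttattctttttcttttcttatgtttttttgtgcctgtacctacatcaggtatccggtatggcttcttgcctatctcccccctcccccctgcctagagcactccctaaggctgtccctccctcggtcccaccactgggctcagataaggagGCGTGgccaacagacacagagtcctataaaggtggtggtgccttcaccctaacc
Ahrr: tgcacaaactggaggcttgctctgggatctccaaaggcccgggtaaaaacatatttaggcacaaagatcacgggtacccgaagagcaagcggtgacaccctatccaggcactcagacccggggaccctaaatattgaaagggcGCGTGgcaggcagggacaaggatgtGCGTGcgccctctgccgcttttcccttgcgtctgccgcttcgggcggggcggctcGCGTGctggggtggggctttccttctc
Tiparp: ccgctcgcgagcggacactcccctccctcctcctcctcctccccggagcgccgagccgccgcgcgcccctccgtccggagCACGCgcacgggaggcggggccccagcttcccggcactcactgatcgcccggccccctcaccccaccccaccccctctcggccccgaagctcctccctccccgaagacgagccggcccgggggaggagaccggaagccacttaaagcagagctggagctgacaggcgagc

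RefSeq windows were matched for 6 of the 8 members, the exceptions being Ahr and Aldh3a1. The core began 76 bases before the start used for Cyp1b1, on the other strand, and 54 bases before that used for Cyp1a1. Ahrr held 3 cores, at 107, 82 and 27 bases, and the last of these lies in the longer form TNGCGTG. Tiparp held 1 core at 170 bases on the other strand, Arnt held 1 at 29 bases, and Arnt2 held 0. Searched on both strands, GCGTG is found in 28.2% of the 32851 promoter windows of this length and TNGCGTG in 4.1%. Of the wider list of AHR target genes used below, 8 of 13 had a window, and of these only Scin held a core (1, at 35 bases). The clock element CACGTG (6.02% of windows) and the element AGGTCA (14% of windows), whose letters are those bound by CLOCK-BMAL1 and by NR1D or ROR receptors, were each found in 0 of the 6 member windows. A match of letters is not a binding site, and these windows are only the stretch next to the start used. The windows of Cyp1a1 and Arnt2 lie inside the gene intervals given below, and that of Arnt overlaps the beginning of its interval.

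Cyp1b1 (Entrez Gene 13078, chr17:79706940-79715061 of GRCm38) ran from 0.982 to 67586 normalized counts across the libraries. It had 1020.1 and 1067 normalized counts in Cry/Per/Nr1d_KO-labelled libraries, 2.23 and 0.982 in Cry/Per_KO-labelled ones, and 65345 and 67586 in Per/Nr1d_KO. Libraries of a line lay close together and those of different lines did not overlap. The labelled Cry/Per_KO values rest on 2 and 1 reads, a sum of 3 with an exact 95% Poisson interval from 0.619 to 8.77.

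Summed over the libraries of a line, Cyp1b1 was 64.1-fold higher in Per/Nr1d_KO than in Cry/Per/Nr1d_KO-labelled libraries (exact counting interval 61.4 to 66.9). It was 665-fold higher in the labelled Cry/Per/Nr1d_KO than in the labelled Cry/Per_KO pair (227 to 3230), and 42640-fold higher in Per/Nr1d_KO than in that pair (14600 to 207000). These intervals cover counting error only, and in RNA from a whole culture fewer cells that transcribe a gene and less RNA per cell cannot be told apart. With a floor of 3 counts per library, 74 of the 11934 genes tested had a larger ratio of Per/Nr1d_KO to labelled Cry/Per/Nr1d_KO, and 4 had a larger ratio of labelled Cry/Per/Nr1d_KO to labelled Cry/Per_KO. Counts per kilobase of exon ranked Cyp1b1 at place 148 and 137 of 21572 genes in Per/Nr1d_KO and at place 8880 and 8770 in Cry/Per/Nr1d_KO-labelled libraries.

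**Figure D1:**
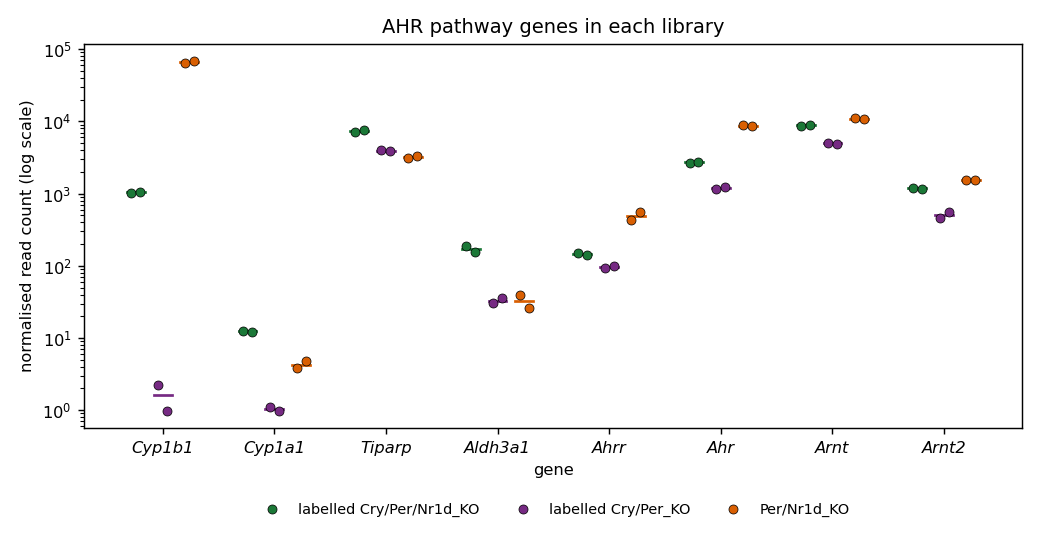
Normalised read counts (log scale) of the 8 AHR pathway genes, with 1 point per library and a bar at the mean of each line. Cyp1b1 runs from 0.982 to 67586 normalized counts, while Cyp1a1 stays at or below 12.4 in every library and Tiparp and Aldh3a1 are highest in Cry/Per/Nr1d_KO-labelled libraries.

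Cyp1a1 (Entrez Gene 13076, chr9:57687928-57703824), the AHR target most often used as a readout of the receptor, was barely transcribed in any line. Normalized counts were 12.4 and 12.2 in Cry/Per/Nr1d_KO-labelled libraries, 1.11 and 0.982 in Cry/Per_KO-labelled ones, and 3.80 and 4.73 in Per/Nr1d_KO. The labelled Cry/Per/Nr1d_KO pair was the highest, at 25 reads against 9 in Per/Nr1d_KO, a ratio of 2.82 with an exact counting interval of 1.27 to 6.86. Against the 2 reads of the labelled Cry/Per_KO pair the same 25 reads gave a ratio of 11.8 (2.95 to 103), and the ratio of Per/Nr1d_KO to that pair was 4.195 (0.868 to 39.9), an interval that includes no difference. Cyp1a1 lay under the limit of 100 normalized counts on average that a gene needed for the main test. Fitted with edgeR on every gene with a count, it was lower in the labelled Cry/Per_KO than in the labelled Cry/Per/Nr1d_KO libraries (log2 fold change -3.41, adjusted p = 0.001), and the other 2 comparisons did not pass at adjusted p = 0.067 and 0.16. Of its 50-base stretches, the read length, 3.43% also occur in Cyp1a2, which had 1 read in all 6 libraries.

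Aldh3a1 (Entrez Gene 11670, chr11:61208510-61218418), an aldehyde dehydrogenase of the classical AHR battery, was also highest in Cry/Per/Nr1d_KO-labelled libraries. It had 190 and 154 normalized counts there, 30.05 and 35.3 in Cry/Per_KO-labelled ones, and 39.3 and 26.0 in Per/Nr1d_KO. Neither other line overlapped the labelled Cry/Per/Nr1d_KO pair, and these overlapped each other. Its mean of 79.2 kept it just under the main limit. With the limit lowered to 10, the log2 fold change (edgeR) from the labelled Cry/Per/Nr1d_KO pair was -2.40 in the labelled Cry/Per_KO (standard error, SE, 0.212, adjusted p = 9.2e-09) and -2.46 in Per/Nr1d_KO (SE 0.211, adjusted p = 4.5e-09). Per/Nr1d_KO and the labelled Cry/Per_KO did not differ detectably, with a log2 fold change of -0.07 (SE 0.292, adjusted p = 0.84) and an exact counting interval of the ratio of the labelled Cry/Per_KO to Per/Nr1d_KO from 0.734 to 1.52.

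Tiparp (Entrez Gene 99929, chr3:65528447-65555518) encodes a mono-ADP-ribosyltransferase that is induced by AHR and promotes its degradation. It had 7070 and 7621 normalized counts in Cry/Per/Nr1d_KO-labelled libraries, 4023 and 3873 in Cry/Per_KO-labelled ones, and 3069 and 3273 in Per/Nr1d_KO. Again the labelled Cry/Per/Nr1d_KO pair was the highest, and Per/Nr1d_KO, where Cyp1b1 peaked, was the lowest. The log2 fold change from the labelled Cry/Per/Nr1d_KO pair was -1.21 in Per/Nr1d_KO (SE 0.0536, edgeR adjusted p = 1.2e-11) and -0.90 in the labelled Cry/Per_KO (SE 0.053, adjusted p = 8.0e-10). A test against the fold limit itself (edgeR's glmTreat) did not keep the latter, at adjusted p = 0.13. Of the bases in its exons, 5.12% lie opposite the exons of 4931440P22Rik, so its counts depend in part on the strand setting of the counting.

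Ahrr (Entrez Gene 11624, chr13:74211118-74292331), the receptor's repressor, which competes for ARNT, was the one feedback gene that followed the order of Cyp1b1. Its normalized counts were 153 and 141 in Cry/Per/Nr1d_KO-labelled libraries, 94.6 and 99.2 in Cry/Per_KO-labelled ones, and 432 and 549 in Per/Nr1d_KO. No line overlapped another. Per/Nr1d_KO was 3.37-fold above the labelled Cry/Per/Nr1d_KO pair (log2 fold change 1.751, SE 0.131, edgeR adjusted p = 8.0e-09) and 5.11-fold above the labelled Cry/Per_KO pair (2.35, SE 0.142, adjusted p = 4.1e-10). Between the latter pairs the log2 fold change of -0.60 (SE 0.168, adjusted p = 0.0044) was smaller than the limit of 0.81 that a log2 fold change had to exceed for a call. This gene was counted from few reads, with 51.97 ± 8.76 normalized counts per kilobase of exon (SD, n = 2) in Per/Nr1d_KO against 1415 ± 48.2 for Ahr.

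The receptor itself differed in the same order. Ahr (Entrez Gene 11622, chr12:35497979-35534989) had 2644 and 2754 normalized counts in Cry/Per/Nr1d_KO-labelled libraries, 1141 and 1239 in Cry/Per_KO-labelled ones, and 8929.5 and 8509 in Per/Nr1d_KO. Spread within a line was small beside the distance between lines. Per/Nr1d_KO was 3.23-fold above the labelled Cry/Per/Nr1d_KO pair (log2 fold change 1.69, SE 0.0529, edgeR adjusted p = 1.7e-13) and 7.32-fold above the labelled Cry/Per_KO pair (2.87, SE 0.0572, adjusted p = 6.2e-16). The labelled Cry/Per_KO was below the labelled Cry/Per/Nr1d_KO pair by 2.27-fold (log2 fold change -1.18, SE 0.058, adjusted p = 1.1e-10).

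Arnt (Entrez Gene 11863, chr3:95434367-95497240), the dimerization partner of AHR and of the hypoxia-inducible factors, varied less. Its normalized counts were 8709 and 8824.5 in Cry/Per/Nr1d_KO-labelled libraries, 5041 and 4883 in Cry/Per_KO-labelled ones, and 11060 and 10715 in Per/Nr1d_KO. The order was that of Ahr, with narrower steps. Per/Nr1d_KO was above the labelled Cry/Per_KO pair (log2 fold change 1.13, SE 0.0442, edgeR adjusted p = 2.0e-12) and, within the fold limit, above the labelled Cry/Per/Nr1d_KO pair (0.31, SE 0.0431, adjusted p = 9.0e-06). For the labelled Cry/Per_KO against the labelled Cry/Per/Nr1d_KO the fold of 1.77 barely passed the limit (log2 fold change -0.82, SE 0.0442, adjusted p = 2.9e-10), and it no longer did with DESeq2 or without the second labelled Cry/Per_KO library (-0.80 in both).

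Arnt2 (Entrez Gene 11864, chr7:84246274-84411741), a paralogue of Arnt known mainly from neurons, showed the same order. It had 1201 and 1152 normalized counts in Cry/Per/Nr1d_KO-labelled libraries, 463 and 552 in Cry/Per_KO-labelled ones, and 1564 and 1559 in Per/Nr1d_KO. The labelled Cry/Per_KO pair was below the labelled Cry/Per/Nr1d_KO pair (log2 fold change -1.21, SE 0.0838, edgeR adjusted p = 4.7e-09) and below Per/Nr1d_KO, which was higher by 1.62 on the log2 scale (SE 0.0826, adjusted p = 5.2e-11). Between Per/Nr1d_KO and the labelled Cry/Per/Nr1d_KO the log2 fold change was 0.41 (SE 0.0756, adjusted p = 1.7e-04), within the fold limit. Exon bases opposite another gene made up 2.78% for Arnt2 and 2.06% for Ahr.

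Counts per kilobase of exon allow these genes to be set against each other within a library. Ahr stood at 0.394 and 0.406 of the level of Arnt in Cry/Per/Nr1d_KO-labelled libraries and at 0.294 and 0.33 in Cry/Per_KO-labelled ones, whereas in Per/Nr1d_KO it matched Arnt, at 1.05 and 1.03. Arnt2 stayed between 0.0957 and 0.152 of the level of Arnt in every library. Ahrr was between 0.0316 and 0.0541 of the level of Ahr. The level of Cyp1b1 relative to Ahr moved far more than Ahr did, from 0.00206 and 0.000836 in the labelled Cry/Per_KO through 0.407 and 0.409 in the labelled Cry/Per/Nr1d_KO to 7.72 and 8.38 in Per/Nr1d_KO.

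Counted over the pathway, 5 of the 7 members other than Cyp1b1 passed the limit of 100 normalized counts. A call required an edgeR adjusted p (quasi-likelihood test) under 0.05 and a log2 fold change above 0.81 in size. The fold limit is that of the study, which paired it with a stricter adjusted p. In the labelled Cry/Per_KO against the labelled Cry/Per/Nr1d_KO libraries, 4 of the 5 were called lower (Ahr, Arnt, Arnt2 and Tiparp), where 8.95% of all 11934 genes tested were called lower, 7.86% higher and 16.8% in either direction. Called higher were 0 members, with 0 at an unadjusted p under 0.05 and 0 by DESeq2. In Per/Nr1d_KO against the labelled Cry/Per/Nr1d_KO, 2 were called higher (Ahr and Ahrr) and 1 lower (Tiparp), where 20.7% of all genes were called, 11.3% higher and 9.35% lower. In Per/Nr1d_KO against the labelled Cry/Per_KO, 4 were called higher (Ahr, Ahrr, Arnt and Arnt2), where 29.0% of all genes were called, 15.2% higher and 13.8% lower. Called lower in this comparison were 0 members, with 1 (Tiparp) at an unadjusted p under 0.05 and 0 by DESeq2. The comparisons share libraries, so these counts are not independent of each other. They describe members chosen with earlier results of these data known, and no enrichment was tested.

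The order Per/Nr1d_KO above labelled Cry/Per/Nr1d_KO above labelled Cry/Per_KO, with no overlap of libraries, by which Cyp1b1 was selected, held for 4 of the 5 (Ahr, Ahrr, Arnt and Arnt2) and not for Tiparp. Over all genes tested, 17.0% (2034) showed this order, and 304 of these had every step above that limit. The medians of the 5 log2 fold changes were -0.90, 0.41 and 1.62 in the 3 comparisons as ordered above, beside -0.0033, 0.0114 and 0.0348 over all genes tested.

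**Figure D2:**
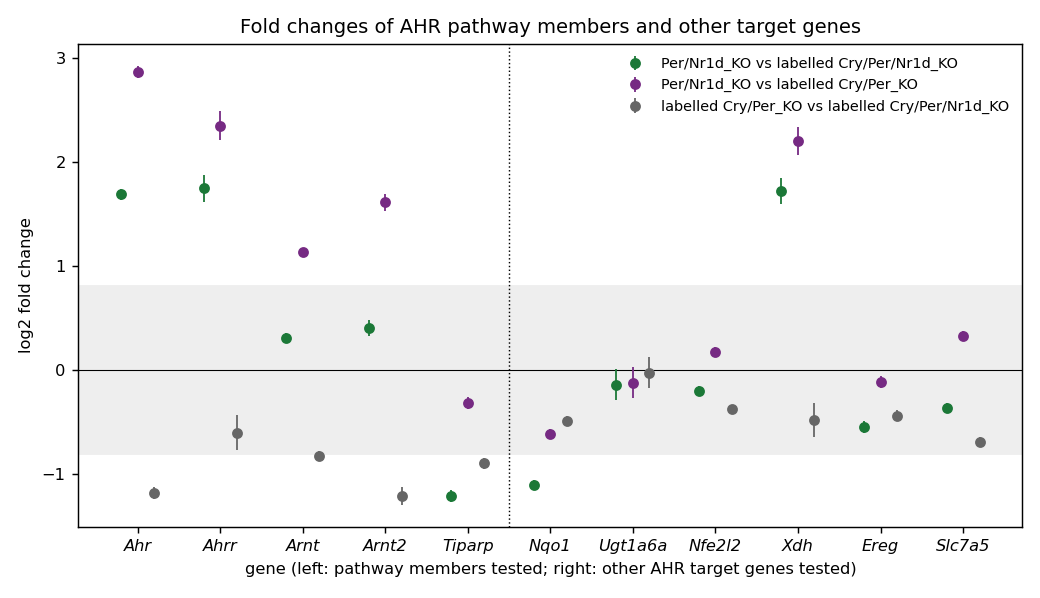
Log2 fold changes (points) with standard errors (lines) of the 5 pathway members and the 6 other AHR target genes that were tested, in the 3 comparisons, with grey marking changes within the limit of 0.81. Ahr and Ahrr were higher in Per/Nr1d_KO, by 1.69 and 1.751 against the labelled Cry/Per/Nr1d_KO, and Xdh by 1.73, while Tiparp and Nqo1 were lower, at -1.21 and -1.10.

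A wider list of 13 AHR target genes was examined next, of which 12 had a count and 6 passed the limit. Xdh (Entrez Gene 22436), the xanthine oxidoreductase, was called higher in Per/Nr1d_KO, 1 of the 6 beside 11.3% and 15.2% of all genes. It had 118 and 128 normalized counts in Cry/Per/Nr1d_KO-labelled libraries, 100.2 and 76.6 in Cry/Per_KO-labelled ones, and 394 and 416 in Per/Nr1d_KO. Both Per/Nr1d_KO libraries were far above the rest, with log2 fold changes of 1.73 (SE 0.127, edgeR adjusted p = 6.4e-09) against the labelled Cry/Per/Nr1d_KO and 2.21 (SE 0.136, adjusted p = 5.3e-10) against the labelled Cry/Per_KO. Of its 50-base stretches, 9.6% occur in other genes.

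Nqo1 (Entrez Gene 18104), a quinone reductase induced by AHR and by NRF2, went the other way. Its normalized counts were 5384 and 5413 in Cry/Per/Nr1d_KO-labelled libraries, 3811 and 3901 in Cry/Per_KO-labelled ones, and 2466 and 2566 in Per/Nr1d_KO. The lines were separated in the order of Tiparp. Per/Nr1d_KO was lower than the labelled Cry/Per/Nr1d_KO pair (log2 fold change -1.10, SE 0.0483, edgeR adjusted p = 1.1e-11), and its difference of -0.61 from the labelled Cry/Per_KO pair (SE 0.0488, adjusted p = 1.1e-08) was within the fold limit.

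None of the 6 was called between the labelled Cry/Per_KO and the labelled Cry/Per/Nr1d_KO libraries by edgeR, with 5 lower and 0 higher at an unadjusted p under 0.05 and 0 called by DESeq2. With 16.8% of all genes called there, this count is near the background. Slc7a5, an amino acid transporter, came nearest at a log2 fold change of -0.69 (SE 0.0498, adjusted p = 8.0e-09). Ereg, which encodes the growth factor epiregulin, and Nfe2l2, which encodes NRF2, had -0.43 and -0.38 in that comparison. Medians over the 6 genes were -0.46, -0.28 and 0.03 in the 3 comparisons in the order above, beside the medians of all genes already given.

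The other members of this list had few reads. Cyp2s1, a cytochrome P450, had 2.66 and 1.11 normalized counts in Cry/Per/Nr1d_KO-labelled libraries, 13.4 and 10.8 in Cry/Per_KO-labelled ones, and 10.1 and 18.9 in Per/Nr1d_KO. Serpinb2, which encodes plasminogen activator inhibitor type 2, had 7.99 and 8.88, then 50.1 and 57.0, and was at 0 in both Per/Nr1d_KO libraries, at least 17.3-fold lower there than in the labelled Cry/Per_KO pair with a floor of 3 counts per library. Serpinb2 thus ran against the order of Cyp1b1. Ido1 reached at most 13.4 and Scin at most 10.1 normalized counts, and Gsta1 was at 0 in all 6 libraries. Ugt1a6a had 126, 124, 111, 135, 113 and 114 normalized counts in the order of lines used above, and Ugt1a6b lay between 49.0 and 74.8. Both Ugt1a6 genes share at least 50.3% of their exon bases with other Ugt1a genes, so their counts are uncertain.

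Of the 6 genes listed for proteins linked to the cytosolic AHR complex (Hsp90aa1, Hsp90ab1, Ptges3, Cdc37, Src and Stub1), all were tested. Here edgeR called 0 in every comparison, and DESeq2 called 0 as well. With 16.8%, 20.7% and 29.0% of all genes called, a list of this length would hold few calls, so the count does not set these genes apart. At an unadjusted p under 0.05 there were 1 higher and 2 lower in the labelled Cry/Per_KO against the labelled Cry/Per/Nr1d_KO, 1 and 2 in Per/Nr1d_KO against the latter, and 2 and 1 against the former. Hsp90ab1, with the highest mean count of them, had mean normalized counts of 294400, 241180 and 257140 in the labelled Cry/Per/Nr1d_KO, the labelled Cry/Per_KO and Per/Nr1d_KO, and Cdc37 had 17650, 19530 and 13392.

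Among the 10 nuclear cofactor genes, all tested, only the coactivator gene Ncoa1 was called, beside 20.7% and 29.0% of all genes in the comparisons with Per/Nr1d_KO and 16.8% in the other. It was lower in Per/Nr1d_KO, at 1494 and 1491 normalized counts against 2501 and 2763 in the labelled Cry/Per/Nr1d_KO (log2 fold change -0.82, SE 0.0606, edgeR adjusted p = 7.2e-09) and 4028 and 4175 in the labelled Cry/Per_KO libraries (-1.46, SE 0.06, adjusted p = 3.8e-12). In the labelled Cry/Per_KO against the labelled Cry/Per/Nr1d_KO, edgeR and DESeq2 called 0, with 4 higher and 5 lower at an unadjusted p under 0.05. Ddb1 and Smarca4, the uncalled genes with the highest mean counts, had log2 fold changes between -0.61 and 0.36 in the 3 comparisons.

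ARNT serves other bHLH-PAS proteins as well, and 5 of the 8 genes of such partners passed the limit. Sim2, a developmental factor, had 869 and 882 normalized counts in Cry/Per/Nr1d_KO-labelled libraries, 0 and 0 in Cry/Per_KO-labelled ones, and 1075 and 1053 in Per/Nr1d_KO. With the same floor it was at least 279-fold and at least 339-fold lower in the labelled Cry/Per_KO pair than in the others. Epas1, which encodes HIF2A, had 432 and 456 in the labelled Cry/Per/Nr1d_KO, 54.5 and 61.9 in the labelled Cry/Per_KO, and 84.9 and 95.5 in Per/Nr1d_KO. Epas1 passed the limit on the mean only through the line in which it was high, and its values are given as a description. Hif1a was higher in Per/Nr1d_KO than in the labelled Cry/Per/Nr1d_KO (log2 fold change 1.31, SE 0.0512, adjusted p = 2.5e-12), and Npas3 was lower (-1.19, SE 0.159, adjusted p = 6.7e-06). Neither differed between the other lines beyond the limit, with log2 fold changes of 0.45 and 0.33. Npas4, a neuronal activity factor, lay between 97.9 and 132 normalized counts in every library and was not called.

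Of the 7 genes of enzymes that work with CYP1 proteins 6 were tested, and 2 of these were called in each comparison with Per/Nr1d_KO, a count near the 20.7% and 29.0% called among all genes. Ephx1, the microsomal epoxide hydrolase that acts on epoxides made by P450 enzymes, had 2972.5 and 2988.5 normalized counts in Cry/Per/Nr1d_KO-labelled libraries, 4884 and 4952 in Cry/Per_KO-labelled ones, and 12586 and 12302 in Per/Nr1d_KO. It was higher in Per/Nr1d_KO than in the labelled Cry/Per/Nr1d_KO (log2 fold change 2.06, SE 0.0453, edgeR adjusted p = 2.4e-15) and the labelled Cry/Per_KO (1.34, SE 0.0439, adjusted p = 2.3e-13), but its order over the other lines was not that of Cyp1b1. Cyb5a, an electron donor of P450 enzymes, was lower in Per/Nr1d_KO (log2 fold changes -1.04 and -0.89, adjusted p = 3.7e-11 and 2.0e-10). Cyb5r3, the reductase of cytochrome b5, and Pgrmc1, a haem-binding partner of P450 enzymes, were not called, with log2 fold changes between -0.47 and 0.18. Por, the reductase on which every microsomal P450 depends, had means of 6423, 6630 and 5601 normalized counts in the labelled Cry/Per/Nr1d_KO, the labelled Cry/Per_KO and Per/Nr1d_KO and was not called either. In the labelled Cry/Per_KO against the labelled Cry/Per/Nr1d_KO, edgeR and DESeq2 called 0 of the 6, beside 16.8% of all genes called by edgeR, with 2 higher and 3 lower at an unadjusted p under 0.05.

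CYP1B1 can oxidize retinol and retinal, and the retinoid metabolism list held large differences between the lines. Of 13 genes, 6 passed the limit, and Aldh1a3 and Crabp2 passed it only through the line in which each was high, so these are described by their values alone. Rdh10 and Dhrs3, which interconvert retinol and retinal, followed the order of Cyp1b1. Rdh10 had 1715 and 1737 normalized counts in Cry/Per/Nr1d_KO-labelled libraries, 742 and 845 in Cry/Per_KO-labelled ones, and 3478 and 3504 in Per/Nr1d_KO. Dhrs3 had 482 and 476, then 93.5 and 88.4, then 1115 and 1056. In both genes each line was separate from the next, and Per/Nr1d_KO was above the labelled Cry/Per/Nr1d_KO by 1.02 (SE 0.0625, edgeR adjusted p = 7.2e-10) and 1.18 (SE 0.0804, adjusted p = 2.7e-09) on the log2 scale.

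In Per/Nr1d_KO, the genes of the cellular retinoic acid-binding proteins differed from both other pairs in opposite directions. Between those pairs, both genes were lower in the labelled Cry/Per_KO. Crabp2, which carries retinoic acid to the nucleus, had 102 and 97.7 normalized counts in Cry/Per/Nr1d_KO-labelled libraries, 34.5 and 28.5 in Cry/Per_KO-labelled ones, and 4167.5 and 4135 in Per/Nr1d_KO. Crabp1, its cytosolic relative, had 14856 and 13487, then 5657 and 5860.0, and 15.2 and 5.52 in Per/Nr1d_KO. In Crabp1, Per/Nr1d_KO was lower than the labelled Cry/Per/Nr1d_KO (log2 fold change -10.56, SE 0.13, edgeR adjusted p = 3.7e-18).

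Of the enzymes that make and clear retinoic acid, Aldh1a3 had 370 and 336.5 normalized counts in Cry/Per/Nr1d_KO-labelled libraries, 25.6 and 42.2 in Cry/Per_KO-labelled ones, and 27.9 and 29.2 in Per/Nr1d_KO. Cyp26b1, which degrades retinoic acid, had 982 and 922, then 152 and 138, then 456 and 440.3. Both were highest in the labelled Cry/Per/Nr1d_KO pair, the pattern of Aldh3a1 and Tiparp. Because the list was chosen with earlier results of these data known, its counts of calls are only a description. Of the other 4 genes tested (Rdh10, Dhrs3, Cyp26b1 and Crabp1), 4 were called lower in the labelled Cry/Per_KO against the labelled Cry/Per/Nr1d_KO, beside 8.95% of all genes. In Per/Nr1d_KO against the latter 2 were called higher and 2 lower, beside 11.3% and 9.35% of all genes, and against the former 3 higher and 1 lower, beside 15.2% and 13.8%. Of the genes under the limit, Aldh1a1 and Rarb had at most 23.4 and 66.6 normalized counts, and Lrat was at 0 in all 6 libraries.

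**Figure D3:**
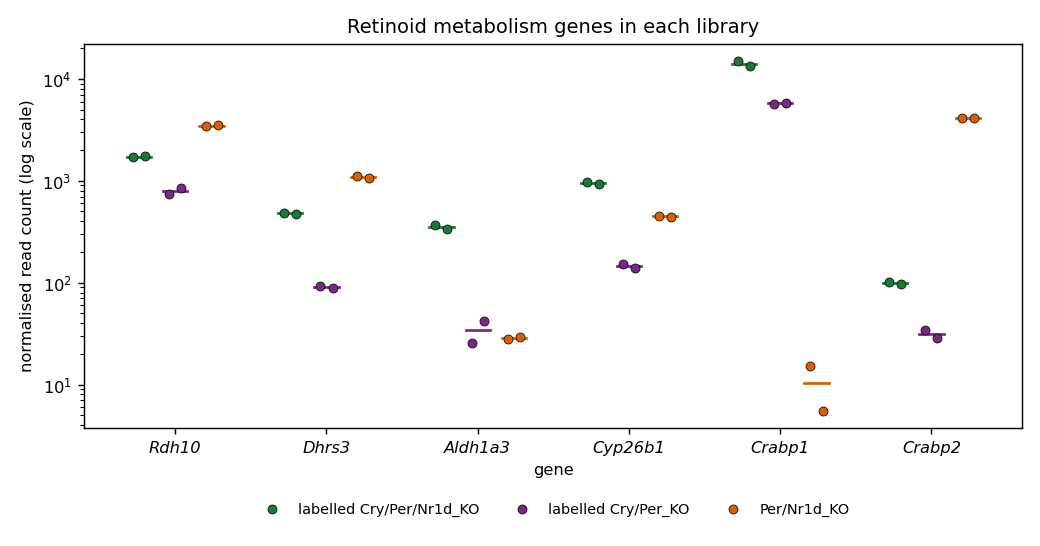
Normalised read counts (log scale) of the 6 retinoid metabolism genes that passed the expression limit, with 1 point per library and a bar at the mean of each line. Every gene is lower in the libraries labelled Cry/Per_KO than in those labelled Cry/Per/Nr1d_KO, while in Per/Nr1d_KO Crabp2 reaches 4167.5 normalized counts and Crabp1 stays at or below 15.2.

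The genes around Cyp1b1 on chromosome 17 were examined next. None of those tested followed its order with each step above the fold limit, an order held by 2.55% of all genes tested, so this does not set them apart. RefSeq places 24 genes with a start within 500 kb of Cyp1b1, of which 9 were among the genes counted, 8 had a count and 7 were tested. Rmdn2, the nearest counted gene on the downstream side at 30.1 kb from the Cyp1b1 start, had means of 708, 568 and 550.04 normalized counts in the labelled Cry/Per/Nr1d_KO, the labelled Cry/Per_KO and Per/Nr1d_KO. Atl2, the nearest counted gene upstream at -133.3 kb, had 8097.5, 5556 and 6951. Neither was called in any comparison, with log2 fold changes between -0.54 and 0.32.

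Galm, which encodes a sugar mutarotase and lies at -412.4 kb, was the only one of the 7 called, beside 20.7% and 29.0% of all genes in the comparisons with Per/Nr1d_KO. It had 2765 and 2832 normalized counts in Cry/Per/Nr1d_KO-labelled libraries, 3254 and 3212 in Cry/Per_KO-labelled ones, and 761.8 and 811 in Per/Nr1d_KO, where Cyp1b1 was highest. Its log2 fold changes in Per/Nr1d_KO were -1.83 (SE 0.0607, edgeR adjusted p = 3.7e-13) and -2.03 (SE 0.0606, adjusted p = 7.3e-14). Hnrnpll, Srsf7, Gemin6 and Cdc42ep3 had log2 fold changes between -0.70 and 0.47, and Gm10494 had 6 reads in all libraries. Between the labelled Cry/Per_KO and the labelled Cry/Per/Nr1d_KO, edgeR and DESeq2 called 0 of the 7 neighbours, beside 16.8% of all genes called by edgeR, with 1 higher and 6 lower at an unadjusted p under 0.05.

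**Figure D4:**
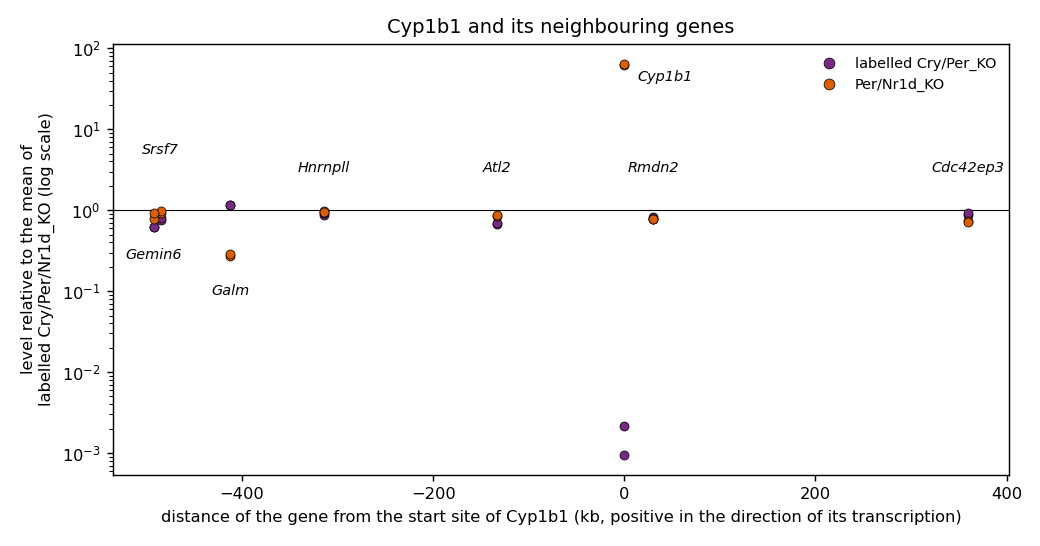
Level of Cyp1b1 and of the 7 tested genes within 500 kb, as a ratio to the mean of Cry/Per/Nr1d_KO-labelled libraries (log scale), against distance from the start site of Cyp1b1 in kb, with 1 point per library. Galm is the only neighbour beyond the fold limit, in Per/Nr1d_KO at 761.8 and 811 normalized counts, while Cyp1b1 departs in both lines.

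The profiles most like that of Cyp1b1 were sought among all genes tested, by Euclidean distance between centred log2 CPM (prior count 2) over the 6 libraries. The nearest were Col2a1, the cartilage collagen, at a distance of 2.51, Hoxd13, a posterior limb homeobox gene, at 2.96, Sfrp2, a Wnt antagonist, at 3.85, Lama1, a laminin chain, at 3.88, and Trim44, a ubiquitin-linked gene, at 3.89. The median distance of all genes was 14.2. Col2a1 had 2859 and 2427 normalized counts in Cry/Per/Nr1d_KO-labelled libraries, 12.2 and 16.7 in Cry/Per_KO-labelled ones, and 58125 and 58302 in Per/Nr1d_KO. Hoxd13 had 1122 and 1198, then 2.23 and 1.96, then 13200 and 12547. Like Cyp1b1, these genes were close to absent in the labelled Cry/Per_KO and abundant in Per/Nr1d_KO. The search picks the smallest distances, so this likeness and the gap to the median follow from the search itself. Lama1 entered the search only through the line in which it was high, and Cyp1a1 and Aldh3a1, below the limit, were not in it.

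The labelled cell type was checked against markers. Of 10 fibroblast markers, Col1a1, Col1a2, Vim, Fn1, Pdgfra and Pdgfrb had at least 4139.6 normalized counts in every library, while Thy1 and Lum were at or near 0, with at most 6.21 and 9.77 normalized counts. The marker sum was 933800 and 886100 normalized counts in Cry/Per/Nr1d_KO-labelled libraries, 837100 and 861500 in Cry/Per_KO-labelled ones, and 1723000 and 1704000 in Per/Nr1d_KO. In Per/Nr1d_KO against the labelled Cry/Per/Nr1d_KO, Col1a1, Col1a2, Col3a1 and Fn1 were called higher, and Vim (-0.87), Pdgfra (-1.61) and Pdgfrb (-1.33) lower (log2 fold changes). These are all 7 markers tested, beside 11.3% of all genes called higher and 9.35% lower. Against the labelled Cry/Per_KO, 3 were called higher and 2 lower, beside 15.2% and 13.8%. Between the labelled Cry/Per_KO and the labelled Cry/Per/Nr1d_KO, 0 were called higher and 1 lower, beside 7.86% and 8.95%. Dcn, below the limit, had means of 133, 52.6 and 88.8 normalized counts in the labelled Cry/Per/Nr1d_KO, the labelled Cry/Per_KO and Per/Nr1d_KO. Col3a1 had the order of Cyp1b1, with 836 and 801, then 289 and 296, then 42810 and 43797 normalized counts. Markers of other types stayed low. The 6 epithelial markers summed to at most 64.4 outside Per/Nr1d_KO and to 137 and 141 in it, mostly Cdh1, the 4 endothelial markers to at most 138, the 4 muscle markers to at most 113 and the 3 hepatocyte markers to at most 7.79. The 4 leukocyte markers summed to between 110 and 162 outside Per/Nr1d_KO and to 280.1 and 262 in it, nearly all Cd68, with Cd3e at 0 and Ptprc at most 3.95. The part of these marker differences in the levels of the AHR genes was not tested.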

How the data were processed

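Poly-A RNA of 3 MEF lines (2 libraries each) was sequenced from stranded libraries as single-end reads. After mapping with STAR (mm10) and counting with featureCounts, the authors deposited raw counts per Entrez Gene ID without normalization. Files with the authors' own DESeq2 (1.22.2) comparisons hold fold changes and p-values and were not used. Of the 27179 genes, 25275 matched a RefSeq symbol (GRCm38.p6, the assembly of mm10). The strand setting of the counting is not given in the sources used here.

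Counts were fitted with edgeR 4.0.16 (R 4.3.3, limma 3.58.1), and DESeq2 1.42.0 served as an alternative. Genes averaging 100 normalized counts or more (TMM, scaled to the mean effective library size) entered one quasi-likelihood fit of all 6 libraries in 3 groups, with Benjamini-Hochberg adjustment over the 11934 genes. The standard error of a log2 fold change is its size over the square root of F. The common biological coefficient of variation was 0.0393. The fit was tested on simulated data, but the outcome is not given here and no result rests on it. Exon lengths and shared bases came from GENCODE vM21.

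The members, the 7 lists beside them and the cell type markers were chosen with earlier results of these data known. Named were every member, from each list the called genes with the largest changes (at most 4) and the 2 uncalled ones with the highest mean, the genes near Cyp1b1, every other AHR target with a count, and the 5 nearest profiles; some further members of the lists are named with their values. Another 2 genes of the lists are not reported here. Alternatives were other size factors, DESeq2, a minimum mean of 10 or none, no fold limit, glmTreat, the compared groups alone, a replicate block and leaving out each library.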

Additional observations from a re-analysis of the deposited data

How the results depend on the processing

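The direction of the log2 fold changes of Ahr, Ahrr, Arnt, Arnt2 and Tiparp held under every alternative run, and that of Aldh3a1 under the 1 alternative run, 213 values in all (205 kept their call). Many of these directions could not have turned. Another filter, no fold limit and glmTreat left the log2 fold change all but unchanged. Leaving out a library of the line not compared changed it little. The 1 alternative for Aldh3a1 was another filter. Cyp1a1 was tested in 1 fit with no alternative, and Cyp1b1 was not tested. Calls lost were Arnt in the labelled Cry/Per_KO against the labelled Cry/Per/Nr1d_KO with DESeq2, with glmTreat and without the second labelled Cry/Per_KO library, and Tiparp in the same comparison with glmTreat, which left 2 of the 4 members called there. Without the fold limit all 5 members tested were called in every comparison, where 9118, 9042 and 9793 of all 11934 genes were called. Each library left out in turn gave 3 to 4 members called in the first comparison, 3 in the second and 4 in Per/Nr1d_KO against the labelled Cry/Per_KO.

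Other AHR targets called in the labelled Cry/Per_KO against the labelled Cry/Per/Nr1d_KO numbered 1 of 8 tested with a minimum mean of 10. They numbered 2 of 12 without a filter and 5 of 6 without the fold limit. In Per/Nr1d_KO against the labelled Cry/Per/Nr1d_KO they numbered 3 of 8, 4 of 12 and 5 of 6 under these 3 settings. Against the labelled Cry/Per_KO they numbered 2 of 8, 3 of 12 and 4 of 6. With a minimum mean of 10 the list gains Ugt1a6b and Serpinb2. Serpinb2 passes that minimum only through the labelled Cry/Per_KO pair, where its mean was 53.5 normalized counts. Its mean was 8.44 in the labelled Cry/Per/Nr1d_KO and 0 in Per/Nr1d_KO, so counts that include it are only a description. Over all genes, 14770, 20375 and 11934 were tested under these settings. Of these, 3311, 3808 and 9118 were called in the first comparison and 3912, 4576 and 9042 in the second. The third had 4996, 5590 and 9793 called. More genes enter the test with a lower filter, and more calls pass without a fold limit, by construction.

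Replicate numbers did not pair the libraries: libraries with the same number deviated with correlations of -0.188, -0.0843 and -0.02 across genes. With the replicate block, 2002, 2468 and 3457 genes were called in the 3 comparisons, against 2006, 2468 and 3457 without it, and the block changed no call of a member. Cyp1a1, Aldh3a1 and Cyp1b1 in the labelled Cry/Per_KO are limited by their read numbers.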

Other observations

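NRF2, which shares target genes such as Nqo1 with AHR, had 8 target and regulator genes measured, all tested. The counts of 2, 1 and 3 genes called in the 3 comparisons stand beside 16.8%, 20.7% and 29.0% of all genes. In the labelled Cry/Per_KO against the labelled Cry/Per/Nr1d_KO, Gclm and Slc7a11 were called lower, with log2 fold changes of -1.03 and -0.96 (edgeR adjusted p = 9.2e-11 and 1.3e-10), and 0 were called higher, with 2 higher at an unadjusted p under 0.05 and 0 by DESeq2. Gclm had 5250 and 5525 normalized counts in Cry/Per/Nr1d_KO-labelled libraries, 2587 and 2694 in Cry/Per_KO-labelled ones, and 4820.3 and 4912.5 in Per/Nr1d_KO. In Per/Nr1d_KO against the labelled Cry/Per/Nr1d_KO only Gclc was called, lower with a log2 fold change of -0.88 (adjusted p = 2.2e-10), at 3633 and 3607 against 6420.1 and 6929 normalized counts. Against the labelled Cry/Per_KO, Gclm was called higher (0.88, adjusted p = 1.9e-10), and Gclc (-0.82, adjusted p = 4.2e-10) and Keap1 (-0.92, adjusted p = 1.0e-10) lower. Txnrd1, Gsr and Hmox1 were not called in any comparison, with log2 fold changes between -0.67 and 0.79.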
